A study of Mus musculus with 25 samples.

Results

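The intracellular serpins described here are 5 genes chosen by symbol out of 41388 gene identifiers in the count files: Serpinb1a, Serpinb6a, Serpinb6b, Serpinb8 and Serpinb9. Serpinb1a was picked because it fell furthest in livers of Western diet-fed wild-type mice given NAMPT, so its values in that comparison, and in any comparison that shares those libraries, are given as a description without a test. All 5 genes passed the filter on low counts. The data were liver transcriptomes of male C57B/6J mice, 20 weeks old, 1 library per mouse. Sirt1 LoxP/LoxP littermates without Cre served as wild type (WT), and the liver knockout (LKO) carried Albumin-cre, which acts in hepatocytes. Every mouse received an AAV8 virus, with either an empty vector (EV) or NAMPT, the rate-limiting enzyme of NAD salvage, under the hepatocyte-directed thyroxine binding globulin promoter. The groups were Chow WT EV (n = 3) and 4 groups fed Western diet (WD) for 12 weeks, namely WD WT EV (n = 6), WD WT NAMPT (n = 6), WD LKO EV (n = 5) and WD LKO NAMPT (n = 5). All mice thus had virus, and no chow-fed group had NAMPT or the knockout.

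Serpins are protease inhibitors that present an exposed reactive centre loop as bait. When the target protease cuts the loop, the hinge at its start inserts into the body of the serpin and traps the enzyme in a covalent complex. Clade B serpins lack a classical secretion signal and act mainly in the cytoplasm and nucleus, where they protect cells from proteases that leak out of granules. Serpinb1a is a mouse counterpart of human SERPINB1, an inhibitor of the neutrophil proteases elastase, proteinase 3 and cathepsin G. Serpinb6a is related to human SERPINB6, an inhibitor of cathepsin G and trypsin-like enzymes, Serpinb8 to an inhibitor of furin, and Serpinb9 to the granzyme B inhibitor of cytotoxic lymphocytes.

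The loop sequences are shown because the loop sets the target protease, while the hinge is what makes the proteins inhibitors. Each run is 75 coding bases (GRCm38, coding strand, within 1 exon). The capitals mark the first 18 bases, which code a motif at the start of the hinge. Each run was placed by searching for that motif. The Serpinb1a loop lies at chr13:32842902-32842976 on the minus strand, Serpinb6a at chr13:33918125-33918199 on the minus strand, Serpinb6b at chr13:32978201-32978275 on the plus strand, Serpinb8 at chr1:107607167-107607241 on the plus strand and Serpinb9 at chr13:33015693-33015767 on the plus strand.
Serpinb1a: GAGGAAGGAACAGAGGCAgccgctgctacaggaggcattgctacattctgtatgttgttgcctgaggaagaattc
Serpinb6a: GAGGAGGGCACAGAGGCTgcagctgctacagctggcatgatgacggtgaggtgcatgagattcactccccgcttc
Serpinb6b: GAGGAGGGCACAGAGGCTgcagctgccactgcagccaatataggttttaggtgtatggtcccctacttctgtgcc
Serpinb8: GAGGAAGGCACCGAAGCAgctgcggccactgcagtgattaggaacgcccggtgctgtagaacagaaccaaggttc
Serpinb9: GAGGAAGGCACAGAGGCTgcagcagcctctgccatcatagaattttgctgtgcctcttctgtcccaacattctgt
Serpinb6a, Serpinb6b and Serpinb8 each had 15 of these 18 bases in common with Serpinb1a, and Serpinb9 had 16. Since the search required the motif, likeness over these bases was largely set by how the runs were placed. Of the other 57 bases, aligned without gaps, 26 of Serpinb6a, 25 each of Serpinb6b and Serpinb8 and 21 of Serpinb9 matched Serpinb1a.

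The list of mouse clade B serpin genes used here holds 27 annotated genes. Of these, 15 form a cluster of 1160.7 kb on chromosome 13 that contains 4 of the 5 members, and 12, among them Serpinb8, lie on chromosome 1. Serpinb1a (ENSMUSG00000044734, chr13:32842092-32851185, minus strand) stands at the low-coordinate end of the cluster and Serpinb6a (ENSMUSG00000060147, chr13:33917918-34002794, minus strand) at the far end. Serpinb6b (ENSMUSG00000042842, chr13:32965209-32979067, plus strand) and Serpinb9 (ENSMUSG00000045827, chr13:33003250-33017957, plus strand) follow Serpinb1a, and Serpinb8 (ENSMUSG00000026315) occupies chr1:107590006-107610484 on the plus strand. The members were the only listed genes of the family that passed the filter on low counts. None of the 22 other clade B genes passed the filter of more than 1 CPM (a gene's counts scaled by the total counts of its library) in at least 2 libraries, and 11 of them had 0 counts in all 25 libraries. The highest value of any of them in any library was 0.687 CPM of Serpinb10, and no library held more than 23 counts of any of them. The closest relatives of Serpinb1a in the cluster, Serpinb1b and Serpinb1c, averaged 0.0595 and 0.0727 CPM.

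**Figure D1:**
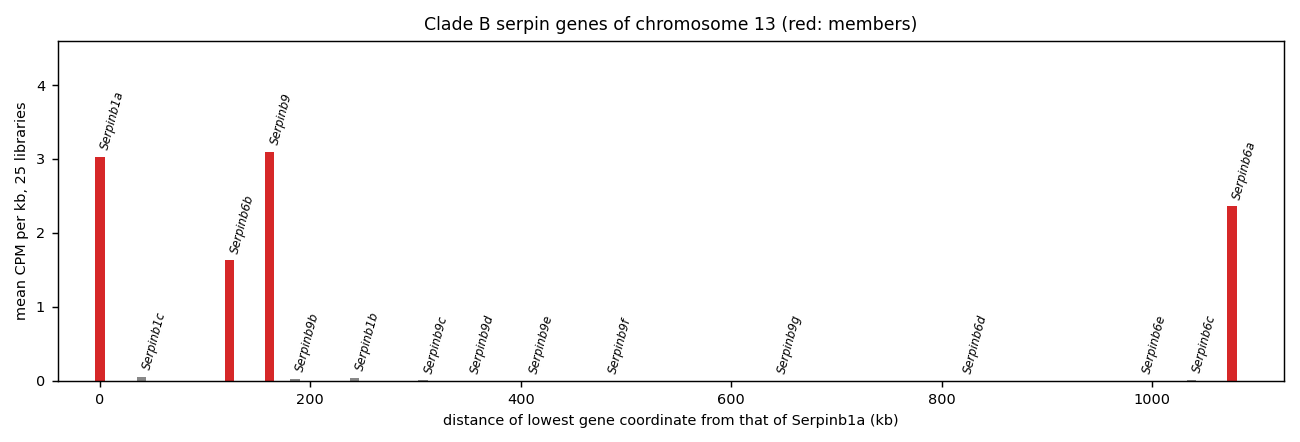
The x axis gives the distance in kb of each gene's lowest coordinate from that of Serpinb1a, and the bars give the mean level in CPM per kb of exon over 25 libraries on a linear axis from 0. The 4 members (red) stand at 1.63 to 3.09 CPM per kb, and the 11 other listed clade B genes of the chromosome (grey) lie at or near 0.

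Levels below are CPM scaled with TMM size factors, which correct for the composition of each library. Per kb of exon and averaged over the 25 libraries, Serpinb9 had 3.09 CPM, Serpinb1a 3.03, Serpinb6a 2.36, Serpinb6b 1.63 and Serpinb8 0.882. The genes differed more in how far they varied than in their mean level. Serpinb1a spanned 16.6-fold between its lowest and highest library, Serpinb8 5.45-fold, Serpinb6b 3.35-fold, Serpinb9 2.15-fold and Serpinb6a 2.08-fold. The counts behind the Serpinb1a values ran from 31 to 414 per library.

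Serpinb1a, the inhibitor of neutrophil serine proteases, was low on chow, high on Western diet with the empty vector and lowest on Western diet with NAMPT in WT. The chow libraries had 4.18, 4.67 and 2.60 CPM (3.82 ± 1.08, SD, n = 3). The WD WT EV libraries had 7.26, 15.6, 8.89, 17.2, 10.45 and 4.76 CPM (10.7 ± 4.84, SD, n = 6). The lowest of the 6 Western diet livers was just above the highest of the 3 chow livers.

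In WD WT NAMPT the Serpinb1a libraries had 1.45, 1.13, 1.04, 2.03, 2.05 and 3.61 CPM (1.88 ± 0.948, SD, n = 6). All 6 livers lay below every WD WT EV liver. This is the comparison that chose the gene, and the fitted log2 difference was -2.78 ± 0.50 (SE), a level 6.86-fold lower with NAMPT. Among all 14065 genes tested the libraries of these 2 groups did not overlap for 0.96%, and 13.4% had a Benjamini-Hochberg adjusted p of 0.05 or less, which is what "called" means from here on. In the WT diet comparison, which shares the WD WT EV libraries, the difference was 1.37 ± 0.41 (SE), and libraries did not overlap for 16.1% of all genes.

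Serpinb1a was also measured with both vectors in the livers labelled LKO. The WD LKO EV libraries had 1.53, 4.61, 2.88, 8.35 and 7.45 CPM of Serpinb1a (4.96 ± 2.91, SD, n = 5). The WD LKO NAMPT libraries had 2.79, 4.04, 9.64, 8.25 and 10.45 CPM (7.03 ± 3.42, SD, n = 5). Both groups ran from low to high values and overlapped over most of their range. Neither group took part in the choice of the gene, so the comparison was tested. Serpinb1a was not called, with a log2 difference of 0.55 ± 0.41 (SE), a 95% interval of -0.30 to 1.4 and an adjusted p of 0.708 in limma. An exact two-sided permutation test gave p = 0.349. Only 1 gene of 14065 was called between these groups (0.00711%), and 1355 genes had an unadjusted p under 0.05.

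The remaining Serpinb1a differences share libraries with the comparison that chose it. WD LKO NAMPT livers were 1.91 ± 0.53 (SE) higher on the log2 scale than WD WT NAMPT livers, with 4 of 5 above all 6 of the latter. WD LKO EV livers were lower than WD WT EV livers, with a log2 difference of -1.41 ± 0.37 (SE) and 3 of 5 below all 6 of the latter. The NAMPT difference in LKO minus that in WT was 3.33 ± 0.65 (SE). WD LKO EV against chow was tested and not called, with a log2 difference of -0.05 ± 0.47 (SE), a 95% interval of -1.01 to 0.92 and an adjusted p of 0.956 in limma. The group means run from WD WT NAMPT through chow, WD LKO EV and WD LKO NAMPT to WD WT EV, and each neighbouring pair in this order overlapped in its libraries.

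**Figure D2:**
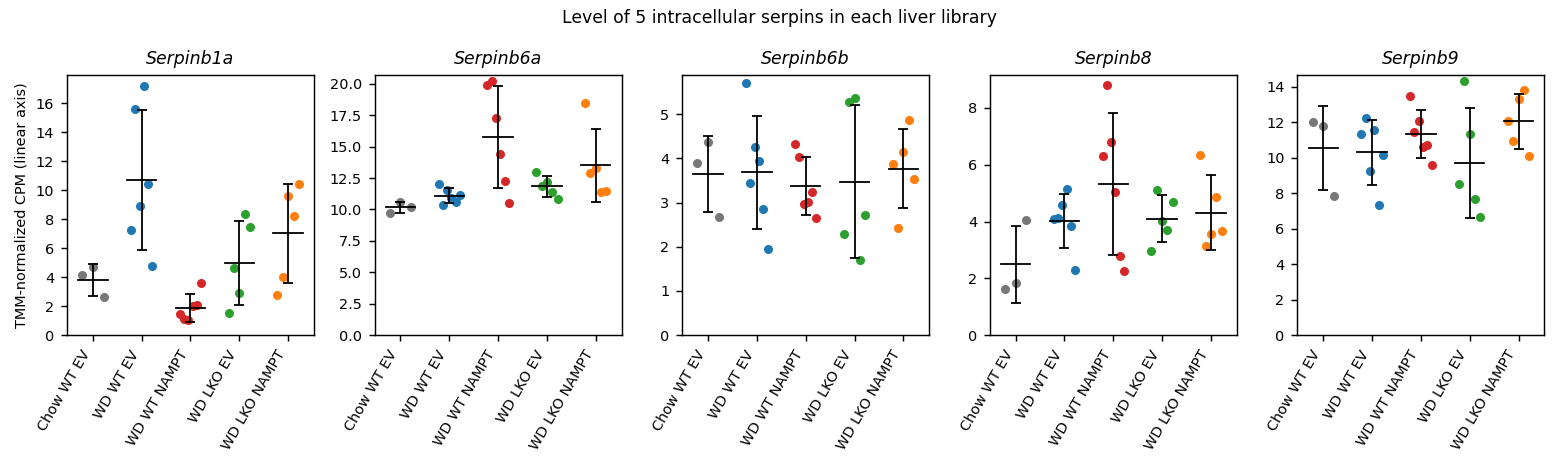
Each panel plots TMM-normalized CPM on a linear axis from 0 for a serpin, with 1 point per library in the 5 groups and bars for the mean ± SD. Serpinb1a falls to 1.04 to 3.61 CPM in WD WT NAMPT while Serpinb6a reaches 20.2 CPM there, and Serpinb6b and Serpinb9 lie at similar means in every group.

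Serpinb6a, the cathepsin G inhibitor relative, went the other way in WD WT NAMPT. It was steady at 9.72, 10.6 and 10.2 CPM on chow and between 10.35 and 12.0 CPM in WD WT EV, with means of 10.2 ± 0.44 (SD, n = 3) and 11.1 ± 0.611 (SD, n = 6). In WD WT NAMPT the 6 libraries had 19.9, 20.2, 17.2, 14.4, 12.3 and 10.5 CPM (15.8 ± 4.02, SD). The first 5 were above all WD WT EV livers, and the last was within their range. The log2 difference was 0.50 ± 0.11 (SE), given without a test.

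In WD LKO EV Serpinb6a had 13, 11.9, 12.2, 11.4 and 10.8 CPM, and in WD LKO NAMPT 18.5, 12.9, 13.3, 11.4 and 11.5 CPM. A lone liver, WD LKO NAMPT replicate 1, was well above the rest of its group. Serpinb6a was not called between these groups, with a log2 difference of 0.11 ± 0.12 (SE), a 95% interval of -0.13 to 0.35 and an adjusted p of 0.801 in limma. With the NAMPT vector, LKO livers had less Serpinb6a than WT livers by a log2 difference of -0.27 ± 0.11 (SE), which was not called (adjusted p = 0.114). The background share of called genes was 7.96% there. Leaving out WD WT NAMPT replicate 5, WD WT NAMPT replicate 6 or WD LKO NAMPT replicate 1 brought the adjusted p to 0.0288, 0.0424 and 0.0332. The other 8 fits that left out 1 library did not call it, with differences as small as -0.20 without WD WT NAMPT replicate 3 and an adjusted p of up to 0.369 without WD LKO NAMPT replicate 5, and the edgeR quasi-likelihood test and DESeq2 gave 0.373 and 0.377. The difference between the NAMPT responses of both genotypes was -0.39 ± 0.16 (SE) and was not called (adjusted p = 0.177), as was true of all but 1 of the genes tested (0.00711% called, 2986 genes with an unadjusted p under 0.05).

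The WD LKO EV libraries of Serpinb6a were all above chow, without being called in limma (log2 difference 0.22 ± 0.13, SE, adjusted p = 0.209). The exact permutation test of that pair of groups gave p = 0.0357, and libraries did not overlap for 23% of all genes. The same exact permutation test gave p = 0.0476 for WD WT EV against chow, where the log2 difference was 0.10 ± 0.13 (SE). Adjusted over the 22 exact tests run for the members, both came to 0.349. The smallest p these tests could give was 0.0179 and 0.0119, too large for a lone test to reach 0.05 after adjustment. Exons of Serpinb6a lie opposite exons of other genes over 762 bases for Nqo2, 584 for 1110046J04Rik and 241 for Ripk1, and whether counting used strand is not given in the sources used here, so reads from these stretches cannot be assigned with certainty.

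Serpinb8, the furin inhibitor relative, was the only member called in any test, in both comparisons with chow. On chow it had 1.61, 1.83 and 4.06 CPM (2.5 ± 1.36, SD, n = 3). WD WT EV libraries had 4.09, 4.12, 4.59, 5.13, 3.84 and 2.31 CPM (4.01 ± 0.952, SD, n = 6), and WD LKO EV libraries had 2.98, 5.11, 4.03, 3.71 and 4.68 CPM (4.10 ± 0.834, SD, n = 5). Chow replicate 3 lay in the middle of both Western diet groups, and the other two chow libraries lay below all of them. Serpinb8 rose in WD WT EV against chow by 1.03 ± 0.33 (SE) on the log2 scale (adjusted p = 0.0257 in limma), the only call among the 4 members tested, where 22% of all genes were called and 10.1% as higher. It rose in WD LKO EV against chow by 1.07 ± 0.32 (SE, adjusted p = 0.0165 in limma), the only call among 5 members. Of all genes 27.8% were called there, and 13% were called as higher. That comparison differs in diet and genotype together. In both comparisons the members were called about as often as other genes.

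Both Serpinb8 calls were lost under several alternatives. Without the quality weights that limma gives each library, the adjusted p was 0.319 for WT and 0.275 for LKO, and the edgeR quasi-likelihood test gave 0.262 and 0.238. Leaving out chow replicate 1 lowered the log2 differences to 0.51 and 0.55 (adjusted p = 0.538 and 0.457), and leaving out chow replicate 2 lowered them to 0.62 and 0.66 (adjusted p = 0.484 and 0.413). Cell type markers were called in both directions in the same comparisons. In WT against chow, where 10.1% of all genes were called as higher and 12% as lower, 2 of 12 macrophage, 2 of 8 stellate cell, 1 of 8 endothelial cell and 1 of 5 NK and T cell markers rose, while 1 endothelial cell, 3 of 8 hepatocyte and 1 of 4 B cell markers fell. In LKO against chow, where the shares were 13% and 14.9%, 3 macrophage, 4 stellate cell and 3 endothelial cell markers and 1 each for hepatocytes, NK and T cells and B cells rose, while 3 hepatocyte, 1 endothelial cell and 1 of 4 cholangiocyte markers fell. Their part in the Serpinb8 difference was not tested.

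With NAMPT, Serpinb8 values in WT spread out on both sides. The WD WT NAMPT libraries had 6.30, 8.80, 6.82, 5.03, 2.80 and 2.26 CPM (5.33 ± 2.49, SD, n = 6), with 3 above and 1 below all WD WT EV livers. WD LKO NAMPT libraries had 6.35, 3.12, 3.58, 4.87 and 3.66 CPM (4.32 ± 1.31, SD, n = 5). The log2 difference between WD WT NAMPT and WD WT EV was 0.39 ± 0.24 (SE), given without a test, and ranged from 0.19 without WD WT NAMPT replicate 3 to 0.62 without WD WT NAMPT replicate 5. Serpinb8 was not called between the LKO groups, with a log2 difference of -0.09 ± 0.25 (SE), a 95% interval of -0.62 to 0.43 and an adjusted p of 0.932. WD LKO NAMPT against WD WT NAMPT gave -0.44 ± 0.25 (SE, adjusted p = 0.238). That difference ran from -0.67 without WD WT NAMPT replicate 5 (adjusted p = 0.0482) to -0.21 without WD LKO NAMPT replicate 2 (adjusted p = 0.725), and of the 11 fits that left out 1 library only the first called it.

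Serpinb9, the granzyme B inhibitor, and Serpinb6b were not called in any of the comparisons in which they were tested, all but that of WD WT NAMPT with WD WT EV. Group means of Serpinb9 were 10.55 ± 2.37 (SD, n = 3) on chow, 10.3 ± 1.81 (n = 6) in WD WT EV, 11.3 ± 1.35 (n = 6) in WD WT NAMPT, 9.68 ± 3.10 (n = 5) in WD LKO EV and 12.0 ± 1.58 CPM (n = 5) in WD LKO NAMPT. All of these groups overlapped. The largest tested difference of Serpinb9 was that between the LKO groups, 0.24 ± 0.17 (SE) on the log2 scale with a 95% interval of -0.10 to 0.58 and an adjusted p of 0.684, and it ran from 0.094 without WD LKO EV replicate 5 to 0.40 without WD LKO EV replicate 2. Group means of Serpinb6b were 3.64 ± 0.866 (SD, n = 3), 3.69 ± 1.28 (n = 6), 3.37 ± 0.66 (n = 6), 3.47 ± 1.72 (n = 5) and 3.77 ± 0.894 CPM (n = 5) in the same order. The WD LKO EV livers had both the lowest and nearly the highest Serpinb6b, at 2.29, 5.26, 5.37, 1.70 and 2.73 CPM. Its 95% interval for LKO NAMPT against LKO EV, -0.65 to 0.50, still allows a moderate change in either direction. With the empty vector none of the 4 members tested was called between genotypes, where 0.00711% of all genes were called and 891 had an unadjusted p under 0.05.

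**Figure D3:**
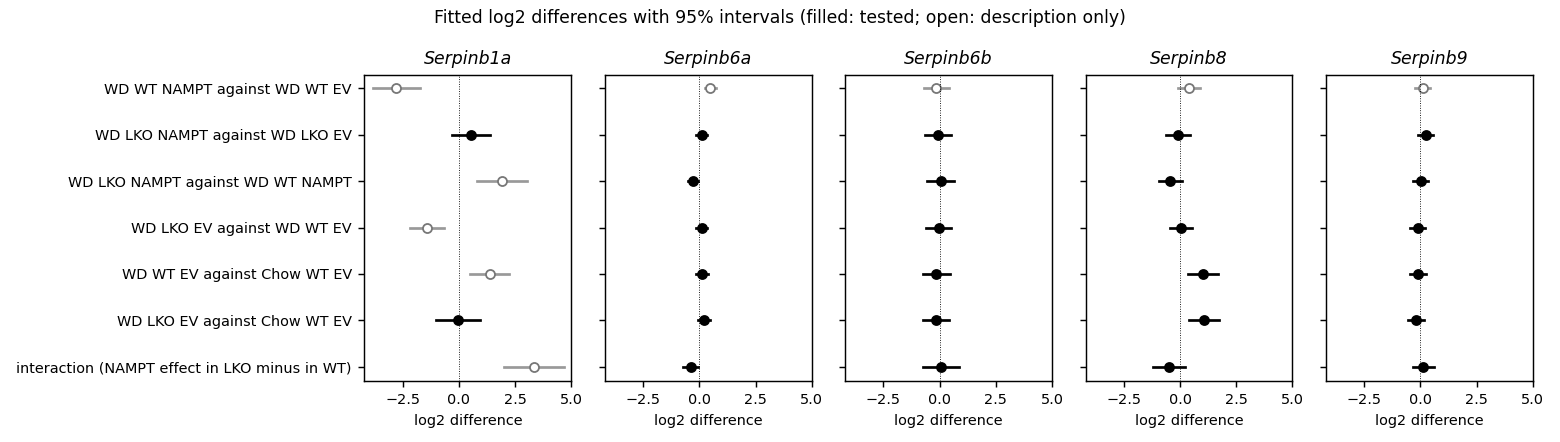
The x axis gives the fitted log2 difference (first group minus second) and the lines its 95% interval for each member and comparison, with filled points for tests and open points for descriptions. Serpinb1a ranges from -2.78 to 3.33, whereas Serpinb6b and Serpinb9 stay near 0. Serpinb8 lies to the right in both comparisons with chow, at 1.03 in WT and at 1.07 in LKO, where genotype differs too.

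Of 10 listed proteases that these serpins are known to inhibit, 7 passed the filter, and none of them was called between the vectors in either genotype or between genotypes, where 13.4% of all genes were called with NAMPT in WT and fewer in the others. In each comparison with chow 2 of the 7 were called, beside 22% of all genes in WT and 27.8% in LKO. The list was thus called about as often as other genes. WD LKO EV differs from the chow group in both diet and genotype. The neutrophil enzymes paired with Serpinb1a were barely detected. Elane, encoding neutrophil elastase, averaged 0.275 CPM with a highest library of 1.12 CPM, Prtn3, encoding proteinase 3, averaged 0.278 CPM, and Ctsg, encoding cathepsin G, had 0 counts in 20 of 25 libraries. Plg, the plasminogen gene and the highest of the list, was lower in both comparisons with chow. It fell by 0.39 ± 0.11 in WD WT EV and by 0.48 ± 0.12 in WD LKO EV (log2, SE, adjusted p = 0.0173 and 0.00358 in limma). F2, the prothrombin gene, fell by 0.29 ± 0.10 in WT (adjusted p = 0.0327), and Furin, the target of the Serpinb8 relative, rose by 0.25 ± 0.08 in LKO against chow (adjusted p = 0.0216).

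The cells from which the serpin RNA came were not resolved, since these are whole livers in which fewer cells of a type and less RNA per cell cannot be told apart. Hepatocyte markers dominated every library, with the 8 listed genes summing to between 45720.2 and 76866.5 CPM. Of 12 macrophage markers, 9 rose in WD WT NAMPT against WD WT EV and 0 fell, with a median log2 difference of 1.07 against 0.0041 over all genes. The genes with the smallest p were Csf1r, the colony stimulating factor receptor, higher by 0.64 ± 0.13, Lyz2, a lysozyme, by 1.14 ± 0.26, and Cd68 by 1.0 ± 0.23 (log2, SE, adjusted p = 0.00878, 0.0124 and 0.0125). They were followed by Adgre1 with 0.91 ± 0.23, Cd5l with 0.91 ± 0.22 and Itgax with 2.11 ± 0.55 (adjusted p = 0.0149, 0.0149 and 0.0174). Between the LKO groups 0 of the 12 were called, with a median log2 difference of 0.13, but only 0.00711% of all genes were called there, so the count says nothing particular about macrophage markers. Between the NAMPT groups 3 of the 12 were lower in LKO (Csf1r, Lyz2 and Marco), beside 7.96% of all genes called in either direction.

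The summed macrophage markers in the 6 WD WT NAMPT livers were 1094, 1115, 1085, 744, 593 and 334 CPM in order of replicate. The 3 livers with the highest sums had the lowest Serpinb1a and the highest Serpinb6a and Serpinb8 of their group. WD WT EV livers had sums of 349 to 508 CPM and chow livers 293 to 359 CPM. The LKO EV livers lay between 384 and 532 CPM, and the LKO NAMPT livers had 858, 454, 367, 435 and 510.2 CPM. The liver with 858 CPM is WD LKO NAMPT replicate 1, which also had the highest Serpinb6a and Serpinb8 and the lowest Serpinb1a of its group.

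Over the 22 Western diet libraries, log2 levels of Serpinb6a and of the macrophage sum had a Pearson r of 0.91 (Spearman rho 0.73), 0.87 after the group means were subtracted and 0.84 without the 2 libraries farthest from the median. For Serpinb1a the values were -0.76 (rho -0.71), -0.67 and -0.69, and for Serpinb8 0.66 (rho 0.42), 0.66 and 0.48. Serpinb9 had an r of 0.39 and Serpinb6b of 0.16. Sums of other markers followed the serpins too. Serpinb6a had an r of 0.85 with neutrophil, 0.83 with stellate cell, 0.79 with NK and T cell and 0.77 with dendritic cell markers, and Serpinb8 had 0.69 with stellate cell and 0.68 with neutrophil markers. Serpinb1a had an r of -0.68 with neutrophil, -0.66 with stellate cell and 0.50 with hepatocyte markers. The points share libraries, groups and scaling, so these are descriptions. The part of macrophage RNA, or of RNA from the other cells, in the Serpinb1a, Serpinb6a and Serpinb8 differences was not tested.

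**Figure D4:**
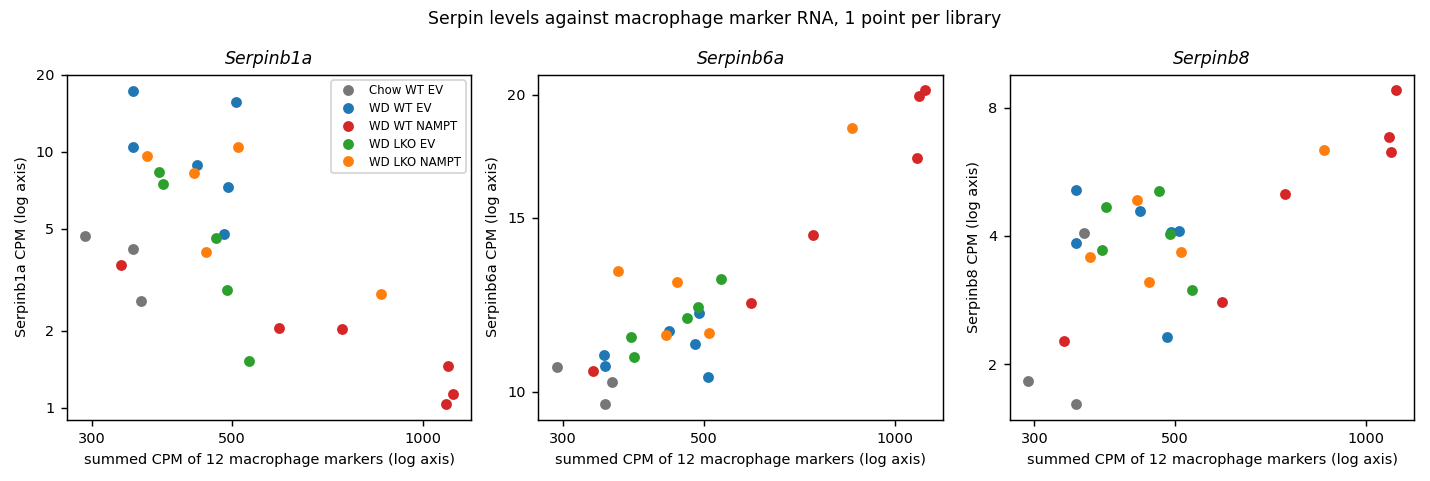
Each point is 1 of 25 libraries, with the summed CPM of 12 macrophage markers on a log x axis and the serpin CPM on a log y axis, coloured by group. Serpinb6a climbs with the macrophage sum in WD WT NAMPT and in WD LKO NAMPT replicate 1, while Serpinb1a is low in the same libraries.

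Markers of other cells are read against the 13.4% of all genes called in WD WT NAMPT against WD WT EV. Of 8 neutrophil markers that passed the filter, 3 rose and 0 fell (Csf3r by 1.28 ± 0.30, Mmp9 by 1.20 ± 0.32 and S100a9 by 1.57 ± 0.48, log2, SE, adjusted p = 0.0128, 0.0185 and 0.0319), while the defining markers Ly6g and Mpo did not pass it. The neutrophil sum ran from 4.85 to 34.0 CPM in WD WT NAMPT and from 3.97 to 10.6 CPM in WD WT EV. Of 8 stellate cell markers 4 rose (Pdgfrb by 0.57 ± 0.13, Des by 0.66 ± 0.16, Col3a1 by 1.18 ± 0.33 and Col1a1 by 1.70 ± 0.48), and 2 of 5 NK and T cell markers rose, Cd2 by 1.78 ± 0.50 and Il2rb by 0.67 ± 0.22 (adjusted p = 0.0237 and 0.0497). For dendritic cells 2 of 7 rose, Flt3 by 1.88 ± 0.55 and Ccr7 by 1.25 ± 0.36, and for endothelial cells 1 of 8 rose (Pecam1, by 0.36 ± 0.11) and 1 fell (Clec4g, which fell by 0.40 ± 0.10). Of 8 hepatocyte markers 1 fell, Asgr1, by 0.33 ± 0.10 (adjusted p = 0.0259), so the hepatocyte list was called at about the share of all genes. No B cell or cholangiocyte marker was called there. The highest gene of each list, as mean CPM over 25 libraries, was Alb at 41235 for hepatocytes, Dcn at 146 for stellate cells, Cd5l at 144 for macrophages, Stab2 at 100.1 for endothelial cells, Ighm at 29.2 for B cells, Zbtb46 at 8.12 for dendritic cells, Sox9 at 8.00 for cholangiocytes, Csf3r at 3.82 for neutrophils and Il2rb at 2.18 for NK and T cells.

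Over the 22 Western diet libraries, all 6 pairs among Serpinb6a, Serpinb6b, Serpinb8 and Serpinb9 had a positive Pearson r of log2 levels, from 0.19 to 0.69, and from 0.26 to 0.71 after group means were subtracted. The highest were 0.69 between Serpinb6a and Serpinb8 and 0.64 between the neighbouring genes Serpinb6b and Serpinb9. Serpinb1a had an r of -0.74 with Serpinb6a (-0.65 after group means were subtracted), -0.26 with Serpinb8, -0.17 with Serpinb9 and 0.07 with Serpinb6b.

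The genes whose level followed Serpinb1a most closely over the 22 Western diet libraries, out of 13705 compared, were Gm4952 (r 0.92), Mtmr4 (0.87), a lipid phosphatase, Aldh9a1 (0.87), an aldehyde dehydrogenase, Etfa (0.85), a subunit of the electron transfer flavoprotein, and Bri3bp (0.83). After group means were subtracted r was between 0.71 and 0.86. Gm4952 averaged 92.6 ± 28.8 CPM in WD WT EV and 44.9 ± 24.8 CPM in WD WT NAMPT (SD, n = 6 each), and 60.2 ± 15.7 and 75.9 ± 23.5 CPM in WD LKO EV and WD LKO NAMPT (SD, n = 5 each). Unlike Serpinb1a it was at 86.6 ± 21.4 CPM on chow (SD, n = 3), close to its level on Western diet in WT EV. The genes with the most opposite levels were Zfp710 (r -0.87), Pik3cg (-0.86), a phosphoinositide kinase subunit, and Prex1 (-0.85), an exchange factor for Rac.

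The genes most like Serpinb6a were Lgmn, encoding the protease legumain, Sh3kbp1 and Pirb, an immunoglobulin-like receptor, each with an r of 0.93. Lgmn averaged 61.2 ± 9.40 CPM in WD WT EV and 102 ± 36.2 CPM in WD WT NAMPT (SD, n = 6 each). For Serpinb8 they were Pcolce (0.90), an enhancer of procollagen processing, Srrm4 (0.83) and Parvg (0.83). For Serpinb6b they were Appl1 (0.77), Car2 (0.72) and Gca (0.70), and for Serpinb9 Tmem71 (0.75), Arhgap18 (0.75) and Cd86 (0.73), a costimulatory receptor ligand.

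**Figure D5:**
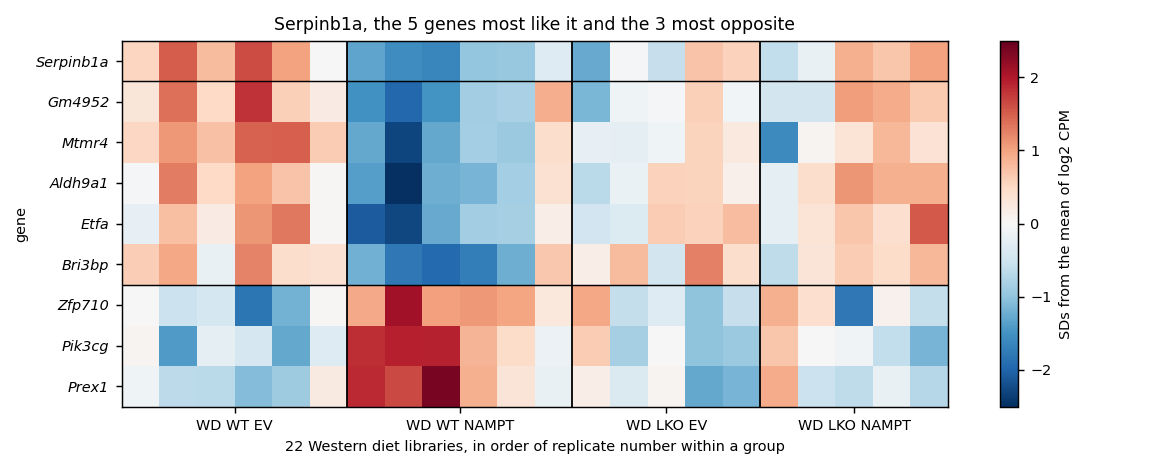
Rows are Serpinb1a, the 5 genes most like it and the 3 most opposite, columns are the 22 Western diet libraries by group, and colours give SDs from each gene's mean log2 CPM. The first 6 rows are mostly below their means in WD WT NAMPT, where the last 3 rows are mostly above theirs.

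Total counts ran from 20166175 to 32937326 per library. The knockout was not visible in the target gene. Sirt1 had 7.16 to 11.1 CPM in the livers labelled LKO and 7.62 to 10.7 CPM in the WT livers, with means of 8.57 ± 1.34 (SD, n = 5) in WD LKO EV and 8.86 ± 0.573 (SD, n = 6) in WD WT EV. With NAMPT the mean was higher in the livers labelled LKO, at 9.82 ± 1.36 (SD, n = 5) against 8.58 ± 0.617 (SD, n = 6) in WD WT NAMPT. Directions drawn from the genotype, Serpinb1a included, thus rest on the labels. A count over the whole gene also takes in exons that a deletion would leave. Nampt averaged 59.5 ± 10.6 CPM in WD WT NAMPT and 47.4 ± 6.46 CPM in WD WT EV (SD, n = 6 each), and 80.0 ± 28.4 and 56.1 ± 12.0 CPM in WD LKO NAMPT and WD LKO EV (SD, n = 5 each). The Nampt libraries of both vectors overlapped in each genotype.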

How the data were processed

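Liver RNA of 25 mice was sequenced as poly-A selected single-end libraries. Per the submitters' processing notes, the authors aligned reads to GRCm38 with STAR 2.5.1a and counted unambiguous reads per gene with featureCounts 1.4.6-p5; the strand setting is not given in the sources used here. The deposited raw counts were used throughout. The deposited CPM and RPKM values, which the authors computed from those counts, were recomputed with a largest relative deviation of 5.9e-14. Groups follow the sample titles, which name NAMPT as the insert, although a treatment field shared by every sample says SIRT1. The members and gene lists were chosen with earlier results of these data known.

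Genes with more than 1 CPM in at least 2 libraries were kept and 4 ribosomal RNA genes left out, which gave 14065 genes. Counts were scaled with TMM (edgeR 4.0.16) and fitted with voomWithQualityWeights (limma 3.58.1, R 4.3.3) over all 25 libraries, with 1 mean per group, and Benjamini-Hochberg adjusted over all genes kept. Exact permutation tests and correlations used log2(CPM + 0.5). The fit was tested on simulated data. Alternatives were the edgeR quasi-likelihood test, DESeq2 1.42.0, no quality weights, upper-quartile factors, library size alone, no filter, only the groups compared, a replicate block, each library left out in turn and exact tests. Named genes are the 5 members, up to 6 called genes per list with the smallest p, the highest gene of each list, and the genes most and least like a member by Pearson r (average log2 CPM of at least 0). Replicates are separate mice, and in no pair of libraries of a group did counts agree within sampling noise (smallest chi-square per degree of freedom 15.6). Of 50-base words of the transcripts, 2.81% for Serpinb1a and 25.1% for Serpinb6a also occur in other genes, against 2.92%, 0.165% and 0.378% for Serpinb6b, Serpinb8 and Serpinb9.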

Additional observations from a re-analysis of the deposited data

Results flagged for a closer look

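Serpinb6a in WD LKO NAMPT replicate 1, at 18.5 CPM, stood apart from the other 4 livers of its group, which had 11.4 to 13.3 CPM. Its gap to the nearest liver was 0.741 of the whole range of the group, above the Dixon limit of 0.71 for 5 samples. It was the only one of 20 groups of 4 to 10 libraries examined (5 members in 4 groups) to pass that limit, which chance alone passes in about 1 group in 20. The same liver had a macrophage marker sum of 858 CPM, against 367 to 510.2 CPM in the others, and a neutrophil marker sum of 24.5 CPM, against 5.98 to 11.2 CPM. Without it, the log2 difference of Serpinb6a between the LKO groups was 0.04.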

How the results depend on the processing

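The fall of Serpinb1a in WD WT NAMPT lay between -2.99 and -2.48 (log2) when each library was left out in turn and kept its direction under every other alternative run. Its tested difference between the LKO groups lay between 0.23 and 0.86 in the same way and was never called. Serpinb1a in WD LKO EV against chow changed sign, to 0.38 in the edgeR quasi-likelihood test, 0.39 in DESeq2, 0.16 without quality weights, 0.12 without the filter and 0.18 on the exact test scale, and ran from -0.32 to 0.29 with a library left out; the cause was not tested. Serpinb8 against chow lost its call under DESeq2 (0.68 in WT and 0.72 in LKO, adjusted p = 0.22 and 0.197) and without the filter (0.95 and 0.98, adjusted p = 0.123 and 0.101). The exact permutation test gave p = 0.0357 in WT and 0.0714 in LKO (0.69 on its scale), so before adjustment only the WT value was below 0.05. Adjusted over the 22 exact tests they came to 0.349 and 0.393. The smallest p these tests could give was 0.0119 in WT and 0.0179 in LKO. That is too large for a lone test to reach 0.05 after adjustment, so the adjusted values decide nothing. Differences that were not called also changed sign: Serpinb6b between the LKO groups (0.12 quasi-likelihood, 0.11 DESeq2, 0.19 without weights, 0.14 without filter, 0.19 exact scale), between NAMPT groups (-0.017 upper quartile, -0.052 library size), WT diet (0.018 quasi-likelihood, 0.022 DESeq2) and interaction (-0.021 library size); Serpinb8 between the LKO groups (0.075 quasi-likelihood, 0.069 DESeq2, 0.056 without weights, 0.045 exact scale); and Serpinb9 between NAMPT groups (-0.039 upper quartile, -0.095 library size). With a library left out, Serpinb6b ran from -0.46 to 0.10 in WD LKO EV against chow, -0.32 to 0.14 against WD WT EV, -0.25 to 0.24 between LKO groups, -0.11 to 0.35 between NAMPT groups, -0.28 to 0.14 for WT diet and -0.10 to 0.39 for the interaction. Serpinb8 ran from -0.072 to 0.12 in WD LKO EV against WD WT EV and -0.20 to 0.14 between LKO groups. Serpinb9 ran from -0.37 to 0.033 in WD LKO EV against chow, -0.28 to 0.024 against WD WT EV, -0.061 to 0.098 between NAMPT groups, -0.21 to 0.15 for WT diet and -0.0049 to 0.30 for the interaction. Values that kept their direction but moved by over 1.5 times with a library left out were also Serpinb6a between LKO groups (0.044 to 0.17) and between EV groups (0.071 to 0.14), the Serpinb8 interaction (-0.71 to -0.25), and, in WD WT NAMPT against WD WT EV, Serpinb6b (-0.29 to -0.0077) and Serpinb9 (0.013 to 0.21). Of the 5 genes most like Serpinb1a, 2 were shared when all 25 libraries were used. With 25 libraries Srrm4, named for Serpinb8, ranked 791, and Tmem71, Arhgap18 and Cd86, named for Serpinb9, ranked 223, 299 and 31. The other genes named for Serpinb6a, Serpinb6b and Serpinb8 ranked between 1 and 5. Serpinb8 and Serpinb1a values rest on as few as 39 and 31 counts, which limits the precision of small differences.

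Replicate numbers are reused for different mice. Deviations of same-numbered libraries correlated between -0.38 and 0.42. Libraries with different numbers were not compared, so whether same-numbered libraries share more than the number was not tested. With the replicate block the calls numbered 884 against 1890 in WD WT NAMPT against WD WT EV, 412 against 1120 between NAMPT groups, 0 against 1 between LKO groups, 2 against 1 between EV groups, 66 against 1 for the interaction, 3842 against 3101 for WT diet and 3070 against 3917 in WD LKO EV against chow. Serpinb8 in WT against chow was then 1.18 (adjusted p = 0.0278) and stayed called, as the only call among the 26 member tests, whereas in LKO against chow it was 0.98 (adjusted p = 0.0658). The sign changes were Serpinb6b 0.30 and Serpinb9 0.061 for WT diet, Serpinb8 0.0046 between LKO groups and -0.19 between EV groups, and Serpinb9 -0.016 between NAMPT groups; in WD WT NAMPT against WD WT EV, Serpinb6b moved to -0.53 and Serpinb8 to 0.074.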
